A study of Mus musculus with 8 samples.

Results

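The genes described here are 9 enzymes and partners that write, copy and erase DNA methylation: Dnmt1, Dnmt3a, Dnmt3b, Tet1, Tet2, Tet3, Uhrf1, Idh1 and Idh2. They were chosen by name, and all 9 are among the 13305 genes of the count table. RNA of whole bone marrow (BM) was sequenced from 8 C57BL/6N mice with 1 library per mouse, and reads were counted per gene. All mice carried Mx1-Cre, 1 lost Dnmt3a allele (Dnmt3a+/-) and an internal tandem duplication of Flt3 on both alleles (Flt3ITD/ITD). They differed in Gab2, an adaptor protein of receptor signalling: 3 AML WT mice were Gab2+/+, 2 AML HET mice Gab2+/- and 3 AML KO mice Gab2-/-, so that they had 2, 1 and 0 functional alleles. Because every group was Dnmt3a+/-, no comparison here shows the effect of Dnmt3a loss itself. The lost Dnmt3a allele was a floxed one. The paper reports that it recombined through spontaneous Cre expression, so the mice were studied without injections to induce Cre. Mx1-Cre is driven by an interferon-responsive promoter that is active in many cell types, and the ages of the sequenced mice are not given in the sources used here.

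DNA methylation is a chemical mark on cytosine, mostly at CG dinucleotides (CpG). Dnmt3a and Dnmt3b place the mark on unmethylated DNA, whereas Dnmt1 copies it to the new strand after replication, guided by Uhrf1, which binds hemimethylated sites. The enzymes Tet1, Tet2 and Tet3 oxidise the mark and so start its removal. They need 2-oxoglutarate, which Idh1 makes in the cytosol and peroxisomes and Idh2 in mitochondria. DNMT3A, TET2, IDH1 and IDH2 are among the genes recurrently mutated in human AML, often together with FLT3-ITD.

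As sequence background, 15 promoter windows covered all 9 genes (RefSeq, GRCm38.p6, 250 bases before and 50 after a transcription start). A window was called CpG-rich at a GC content of at least 50% and a CpG count of at least 0.6 times that expected from its base composition. This held for 9 of the 15 windows, against 33.7% of all 32851 RefSeq windows. These belong to 27025 genes, more than the 13305 genes of the count table, whose windows were not counted separately. The Tet2 window (chr3:133544341-133544640, minus strand) held 57 CpGs, at the 99.9th percentile of all windows, where the median was 7. The 250 bases before its start are shown because Tet2 was the only 1 of the 9 genes without overlap between AML KO and AML WT mice. Of all genes, 9.83% were likewise lower in AML KO without overlap, and the share higher without overlap was not counted. These 250 bases lie within the annotated span of Tet2 but overlap no exon of GENCODE M21, and capitals mark each of their 51 CpGs:
Tet2, chr3:133544391-133544640, minus strand: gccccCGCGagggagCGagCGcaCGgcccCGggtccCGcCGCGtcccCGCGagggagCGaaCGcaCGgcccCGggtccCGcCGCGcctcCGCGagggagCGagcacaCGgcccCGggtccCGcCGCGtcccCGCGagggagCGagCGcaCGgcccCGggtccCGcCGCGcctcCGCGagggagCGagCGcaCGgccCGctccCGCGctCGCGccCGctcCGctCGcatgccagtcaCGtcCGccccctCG
This sequence repeats itself: 77.9% of its bases matched the base 42 positions further on. The best match at any shift between 10 and 125 bases was 33.6% to 49.0% in the other 14 windows.

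Both genes of the copying step, Dnmt1 and Uhrf1, had a window with an E2F-type motif, which was searched as TTTCCCGC, TTTCGCGC, TTTGCCGC or TTTGGCGC on both strands. E2F factors act at genes used in S phase. Such a motif was present in 2.26% of all windows, and none of the windows of the other 7 genes held one. The other windows of Dnmt1 and Uhrf1 held none either. Both windows with a match were CpG-rich, as were 33.7% of all windows, and the share with a motif among CpG-rich windows was not counted. In the Dnmt1 window (chr9:20952574-20952873, minus strand), matches began at positions -219 and 33 relative to the start. The 250 bases before that start overlap an annotated exon. In the Uhrf1 window (chr17:56304063-56304362, plus strand), 1 match began at -185. It is shown in capitals in the 250 bases before the start, which lie within the annotated span of Uhrf1 but overlap no annotated exon:
Uhrf1, chr17:56304063-56304312, plus strand: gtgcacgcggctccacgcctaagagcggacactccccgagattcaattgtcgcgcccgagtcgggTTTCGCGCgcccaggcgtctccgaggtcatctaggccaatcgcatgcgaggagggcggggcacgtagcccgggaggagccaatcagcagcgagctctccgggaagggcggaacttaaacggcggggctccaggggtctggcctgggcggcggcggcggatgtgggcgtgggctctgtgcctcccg
A match of letters is a description of the sequence and no evidence of binding, and these data do not measure methylation.

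The libraries had 28009258 to 39266815 counted reads. Gab2 was found at 93.9, 68.5 and 61.6 CPM (counts scaled to library size with edgeR's TMM method) in the 3 AML WT mice, 55.8 and 50.8 in AML HET and 35.0, 47.2 and 40.2 in AML KO. The 3 groups did not overlap, and Gab2 was lower in AML KO than in AML WT by edgeR's quasi-likelihood test (log2 fold change −0.87 with a standard error of 0.18, adjusted p = 0.0420). This call was lost in 6 of 8 fits that each left out 1 mouse, with an adjusted p of up to 0.159, without both AML WT 1 and AML KO 1 (0.0907, described below) and in the fit of AML WT and AML KO alone (0.0811). The exons on which the reads in AML KO lie cannot be seen from gene counts. Marker genes of other blood cells differed as well. Comparing AML KO with AML WT mice, 11 of 13 erythroid, 9 of 10 megakaryocyte and platelet, 7 of 12 mature neutrophil and 3 of 12 stem and progenitor markers were higher at an adjusted p under 0.05. The summed level of the erythroid markers was 336 to 467 CPM in AML WT, 728 to 2290 in AML HET and 1590 to 5560 in AML KO mice, and that of the neutrophil markers 1360 to 4790, 5500 to 6200 and 10600 to 17300 CPM. The megakaryocyte and platelet markers summed to 92.6 to 129, 130 to 170 and 333 to 451 CPM, and the stem and progenitor markers to 702 to 759, 773 to 840 and 926 to 1090 CPM. Without AML WT 1 and AML KO 1, these counts were 0 erythroid, 9 megakaryocyte and platelet, 4 neutrophil and 2 stem and progenitor markers. The estimates of all 13, 10, 12 and 12 markers were still higher in AML KO there. Their median log2 differences were 2.62, 2.90, 1.56 and 0.55. Markers of monocytes and macrophages summed to 5760 to 6700 CPM in AML WT, 5430 to 5750 in AML HET and 4390 to 6000 in AML KO mice, and 0 of 10 were called, although all 10 had a lower estimate in AML KO than in AML WT (median log2 difference −0.30, 4 with an unadjusted p under 0.05). Markers of stroma and endothelium summed to 871 to 1470, 761 to 846 and 533 to 874 CPM, with 0 of 9 called and 5 of 9 lower (median −0.54, 4 with an unadjusted p under 0.05). Markers of B cells (426 to 642 CPM in sum) were present in all mice, as in marrow. Their median deviation from the mean of the 8 libraries was −2.4 on the log2 scale in AML WT 1 and −0.025 to 0.54 in the others. For T and NK cells it was −1.23 in AML WT 1 and −0.48 to 0.74 in the others. Of these 10 markers 0 were called, and all 10 were higher in AML KO than in AML WT (median 0.55, 3 with an unadjusted p under 0.05). Without AML WT 1 and AML KO 1, 7 of the 10 were higher (median 0.13). No listed gene in the table was at 0 in any mouse. The part of this shift in the levels below was not tested, and in whole BM a smaller number of cells cannot be told apart from less RNA per cell.

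Before the genes are compared, 2 libraries have to be named. In AML WT 1, long genes had higher and short genes lower values than in the mean of the 8 libraries, and in AML KO 1 the reverse was seen. Genes were divided by merged exon length into 5 classes of equal size. The median deviation of the longest class (over 7.36 kb) minus that of the shortest was 0.62 on the log2 scale in AML WT 1 and −0.55 in AML KO 1, whereas it lay between −0.089 and 0.068 in the other 6 libraries. Dnmt1, Dnmt3a, Tet1, Tet2 and Tet3 belong to the longest class, Dnmt3b to the class of 5.07 to 7.36 kb, Uhrf1 to that of 3.54 to 5.07 kb, and Idh1 and Idh2 to that of 2.26 to 3.54 kb. Over all genes, the median log2 difference of AML KO from AML WT was 0.22 in the shortest class and −0.20 in the longest. The values of the 5 genes in the longest class are therefore also given without these 2 libraries.

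**Figure D1:**
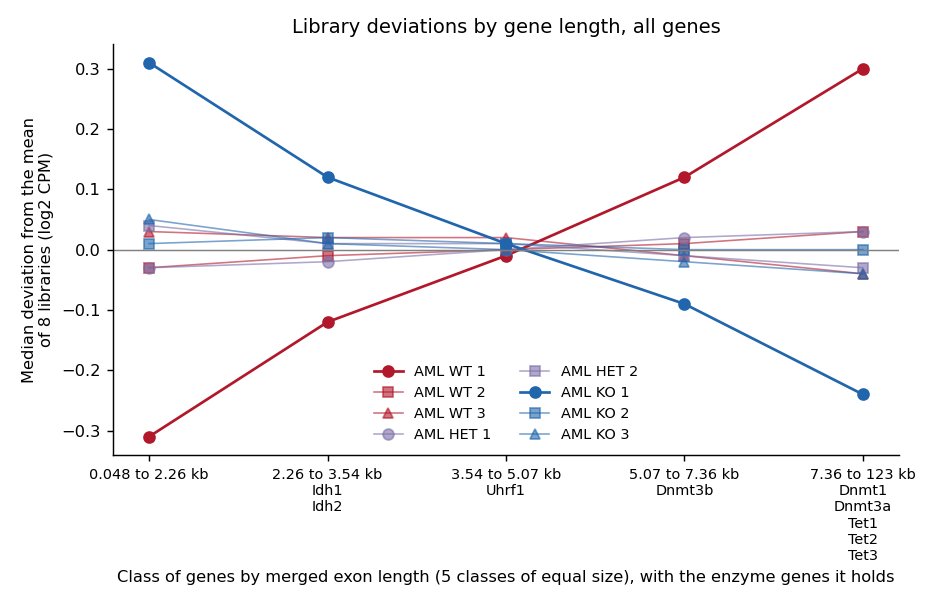
Median deviation of all genes from the mean of the 8 libraries (log2 CPM, y axis) in 5 classes by merged exon length (x axis), with 1 line per mouse and the enzyme genes named under their class. AML WT 1 runs from −0.31 in the shortest to 0.30 in the longest class and AML KO 1 from 0.31 to −0.24, while the other 6 lines lie between −0.04 and 0.05.

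Per kilobase of merged exons, which allows levels of different genes to be compared, the 9 genes spanned more than 2 orders of magnitude. Idh2 was highest at 92.5 CPM per kb (mean of 8 mice, range 85.8 to 98.1), and it ranked first in every mouse. Idh1 (70.3, range 59.7 to 82.9) and Uhrf1 (69.7, range 62.9 to 75.0) followed and could not be ordered, since Idh1 was above Uhrf1 in 4 of 8 mice. Dnmt1 came next in every mouse at 43.1 CPM per kb, but had the widest relative range, from 26.3 to 71.6. Tet3 (7.98 CPM per kb) was above Dnmt3b (6.71) in 7 of 8 mice, and Tet2 (4.55) above Dnmt3a (3.77) in 7 of 8. Tet1 was last in every mouse at 0.483 CPM per kb (range 0.347 to 0.783), and even its lowest value rested on 175 counts. In every mouse, the maintenance pair and both dehydrogenases were above all de novo and oxidising enzymes. The length matters for the order in the middle: with the longest annotated transcript in place of merged exons, Tet2 (8.35 CPM per kb) came before Dnmt3b (7.93), and the other 7 places were the same.

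The main question was whether the level of these genes followed the Gab2 genotype. None of the 9 genes differed at an adjusted p under 0.05 in AML KO against AML WT, where edgeR's quasi-likelihood test called 2.09% of all genes (278, of which 235 were higher and 43 lower). At an unadjusted p under 0.05, 1 of the 9 (Tet2) was found, beside 17.7% of all genes. Between AML HET and AML WT, 0 of 9 were called with 0.0225% of all genes called (3), and 0 were below an unadjusted p of 0.05, beside 2.47% of all genes. Between AML KO and AML HET, 0 of 9 genes and 0% of all genes were called. There, 1 of the 9 had an unadjusted p under 0.05, as had 5.86% of all genes (780), and DESeq2 called 77 genes but none of the 9. A slope on the number of lost Gab2 alleles over all 8 mice called 0 of 9, and 2.64% of all genes (351), with Tet2 alone of the 9 below an unadjusted p of 0.05, beside 20.2% of all genes.

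How large a difference these data leave room for was read from the 95% confidence intervals, which are not adjusted for the number of genes. In AML KO against AML WT, the intervals of 8 of 9 genes lay within a 2-fold difference in either direction (all but Dnmt1) and those of 5 within 1.5-fold. The narrowest belonged to Idh2 and Uhrf1. In AML HET against AML WT, 7 of 9 intervals lay within 2-fold, with Dnmt1 and Tet1 the exceptions, and in AML KO against AML HET 8 of 9, with Tet1 the exception. In AML KO, 7 of the 9 genes had a lower estimate than in AML WT, with a median log2 fold change of −0.16, while the median of all genes was −0.017. Of the 9 genes, 5 belong to the longest class, the median of which was −0.20. Without AML WT 1 and AML KO 1, the estimate was lower in 4 of the 9 and their median was 0.014.

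**Figure D2:**
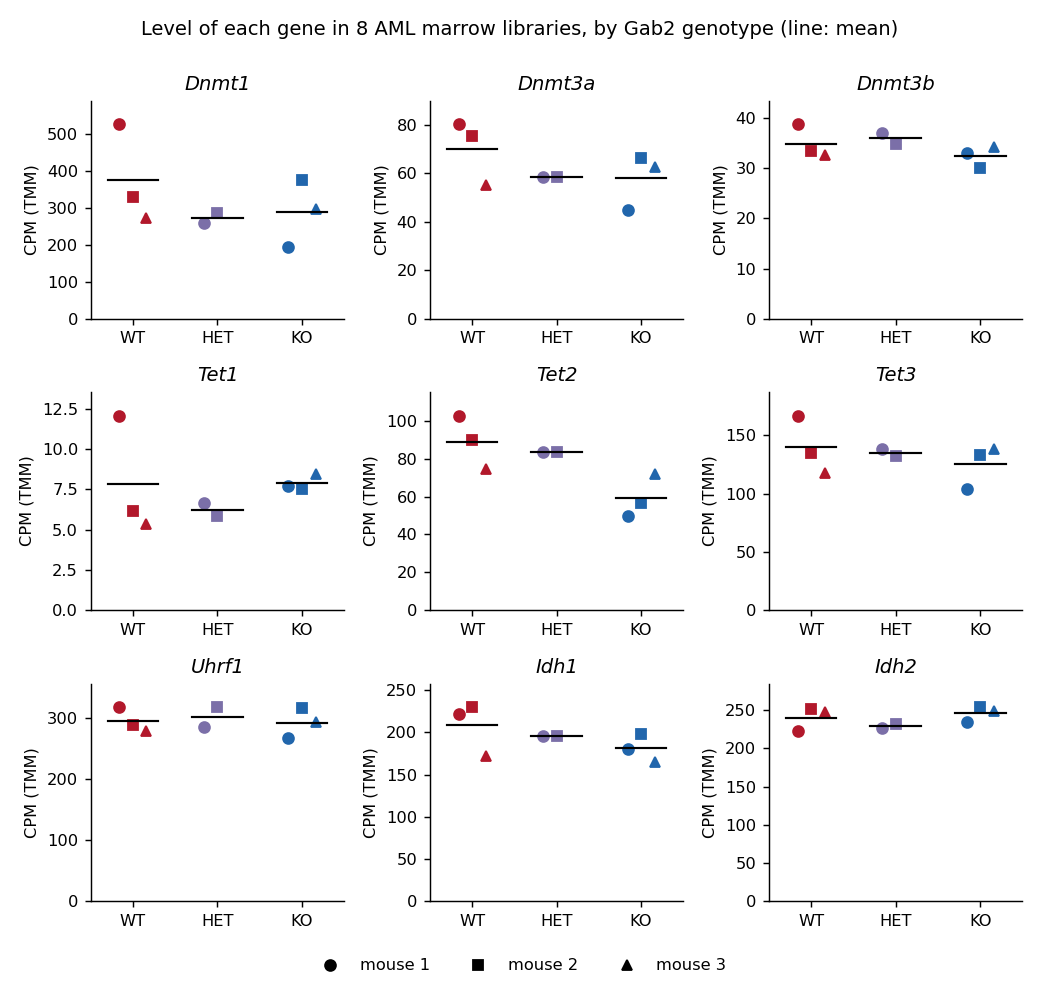
Level of each of the 9 genes in CPM (y axis, from 0) in AML WT, HET and KO mice (x axis), with 1 symbol per mouse (circle, mouse 1; square, mouse 2; triangle, mouse 3) and a line at the group mean. The groups overlap between AML WT and AML KO in every panel but that of Tet2, where the AML KO mice lie at 49.6 to 72.0 CPM and the AML WT mice at 74.6 to 103.

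Among the writers, Dnmt3a (chr12:3806007-3914443, plus strand), the gene of which all mice lack 1 functional allele, was found at 80.3, 75.2 and 55.2 CPM in AML WT, 58.3 and 58.5 in AML HET and 44.9, 66.5 and 62.8 in AML KO mice. AML WT 1 was highest and AML KO 1 lowest, and the groups overlapped. The means were 70.2 ± 13.2 (SD, n = 3), 58.4 ± 0.119 (SD, n = 2) and 58.1 ± 11.6 (SD, n = 3). AML KO differed from AML WT by −0.27 on the log2 scale (95% interval −0.69 to 0.14, standard error 0.18, edgeR adjusted p = 0.422). Without AML WT 1 and AML KO 1 it was −0.012 (standard error 0.15). Gene counts do not separate the deleted from the intact allele, so they do not check the Dnmt3a genotype.

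Dnmt3b (chr2:153649450-153687730, plus strand), the other de novo enzyme, lay within a narrow band. Its levels were 38.8, 33.4 and 32.6 CPM in AML WT, 37.0 and 34.9 in AML HET and 33.0, 30.0 and 34.2 in AML KO mice. The AML KO mice overlapped the AML WT mice and were all below the AML HET mice. On the log2 scale, AML KO was −0.11 from AML WT (95% interval −0.39 to 0.17, edgeR adjusted p = 0.637). Dnmt3b thus stayed at 6.35 to 7.04 CPM per kb in the group means, against 3.49 to 4.22 for Dnmt3a. This gap depends on the length used: with the longest transcript, the AML WT means were 8.09 and 7.25.

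For the maintenance enzyme Dnmt1 (chr9:20907209-20959888, minus strand), the mice of AML WT and of AML KO lay far apart (SD 134 and 91.2 CPM, n = 3 each), unlike those of AML HET (SD 21.1, n = 2). The 3 AML WT mice were at 528, 330 and 273 CPM, the AML HET mice at 259 and 288, and the AML KO mice at 194, 376 and 297. The extremes were again AML WT 1 and AML KO 1, the libraries with the opposite length trends. In these, Dnmt1 deviated from the mean of the 8 libraries by 0.79 and −0.66 on the log2 scale. The median deviations of its length class were 0.30 and −0.24. The coefficient of variation was 35.5% in AML WT and 31.6% in AML KO. The log2 difference of Dnmt1 between AML KO and AML WT was −0.38 (95% interval −1.01 to 0.24, standard error 0.28, edgeR adjusted p = 0.451). It turned to 0.16 (standard error 0.15) without AML WT 1 and AML KO 1. With the offset for length and GC content described below, it stayed at −0.36 (standard error 0.23). The part of gene length in the spread of Dnmt1 was not tested.

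Uhrf1 (chr17:56303321-56323486, plus strand), the partner that guides Dnmt1, varied far less. Its levels were 318, 290 and 280 CPM in AML WT, 286 and 319 in AML HET and 268, 317 and 295 in AML KO mice, and the groups overlapped in all 3 comparisons. The log2 difference of AML KO from AML WT was −0.014 (95% interval −0.28 to 0.25, standard error 0.12, edgeR adjusted p = 0.957). Its sign changed with upper-quartile normalization (0.012), so no direction is given. Markers of the cell cycle were likewise not called by edgeR in any comparison: 0 of 20 S phase genes and 0 of 18 genes of G2 and M phase passed the test, with median log2 differences of 0.033 and −0.035 of AML KO from AML WT. At an unadjusted p under 0.05, 2 and 4 of them were found in that comparison, beside 17.7% of all genes, and DESeq2 called 1. In the fit of all mice, 11 of the 20 and 9 of the 18 had a higher estimate in AML KO. Without AML WT 1 and AML KO 1, 15 of the 20 and 16 of the 18 were higher, and 0 were called. Their medians were then 0.073 and 0.10, with −0.0092 over all genes.

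Tet2 (chr3:133463679-133545139, minus strand), an oxidising enzyme, showed the largest difference of the 9 genes in the fit of all 8 mice. Other genes had a larger one in other fits: Tet1 without AML WT 1 and AML KO 1 (0.48 against −0.36), Tet1 and Dnmt1 with the offset described below (0.35 and −0.36 against −0.33), and Dnmt1 without AML KO 2 (−0.61 against −0.55). Its levels were 103, 90.0 and 74.6 CPM in AML WT, 83.7 and 83.8 in AML HET and 49.6, 56.6 and 72.0 in AML KO mice. Every AML KO mouse was below every AML WT and AML HET mouse, although the highest AML KO and the lowest AML WT mouse were close. Tet2 was the only 1 of the 9 genes without overlap between AML KO and AML WT in either direction. Of all genes, 9.83% were likewise lower in AML KO without overlap. The share of all genes higher in AML KO without overlap was not counted. The means were 89.3 ± 14.3 (SD, n = 3), 83.7 ± 0.0606 (SD, n = 2) and 59.4 ± 11.5 (SD, n = 3) CPM.

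The level of Tet2 in AML KO was 0.665 times that in AML WT (95% interval 0.512 to 0.864), which is −0.59 ± 0.17 (standard error) on the log2 scale. The unadjusted p of edgeR's quasi-likelihood test was 0.00612 and the adjusted p 0.135, so the difference did not pass the correction over all genes. The slope was −0.29 per lost Gab2 allele (edgeR adjusted p = 0.118, standard error 0.086). In its mean, AML HET was close to AML WT, with a log2 fold change of −0.093 between them (95% interval −0.51 to 0.33), and AML KO differed from AML HET by −0.50 (edgeR adjusted p = 0.771, standard error 0.19). These comparisons share mice and were not tested against each other. DESeq2, which called 730 genes in AML KO against AML WT, called Tet2 (adjusted p = 0.0383). Over the 10 alternatives other than single mice left out, the adjusted p ranged from 0.0383 to 0.465, with 1 of 10 under 0.05.

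The difference in Tet2 was smaller in the fits that took the length trend into account. The median log2 fold change of the length class to which Tet2 belongs was −0.20, and Tet2 was 0.39 below that median (difference −0.39). With an offset for length and GC content in each library, the value was −0.33 (edgeR adjusted p = 0.219, standard error 0.12), and without AML WT 1 and AML KO 1 it was −0.36 (edgeR adjusted p = 0.465, standard error 0.15). The direction was the same in all 8 fits that each left out 1 mouse, from −0.75 to −0.47, with adjusted p from 0.0996 to 0.402.

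A ratio of 2 genes within a library does not depend on how the library is scaled. Tet2 and Tet3 have merged exons of 16.9 and 16.7 kb, although their GC content differs (45.35% and 53.45%). The log2 ratio of Tet2 to Tet3 counts was −0.69, −0.59 and −0.66 in AML WT, −0.73 and −0.66 in AML HET and −1.07, −1.23 and −0.94 in AML KO mice. All AML KO mice were below all other mice, also with AML WT 1 and AML KO 1 set aside. The mean was −0.65 ± 0.055 (SD, n = 3) in AML WT and −1.08 ± 0.14 (SD, n = 3) in AML KO, a difference of −0.44. No test was made on the ratio, since the genes were picked with results of these mice known. In the other 4 ratios examined (Dnmt3a to Dnmt1, Dnmt3a to Dnmt3b, Uhrf1 to Dnmt1 and Idh1 to Idh2), AML KO and AML WT mice overlapped. AML HET and AML WT mice did not overlap for Dnmt3a to Dnmt3b (0.66 and 0.75 against 0.76 to 1.17). The same held for Uhrf1 to Dnmt1 (0.15 and 0.15 against −0.73 to 0.04), while Tet2 to Tet3 overlapped there. The share of all gene pairs that separate in this way was not counted.

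**Figure D3:**
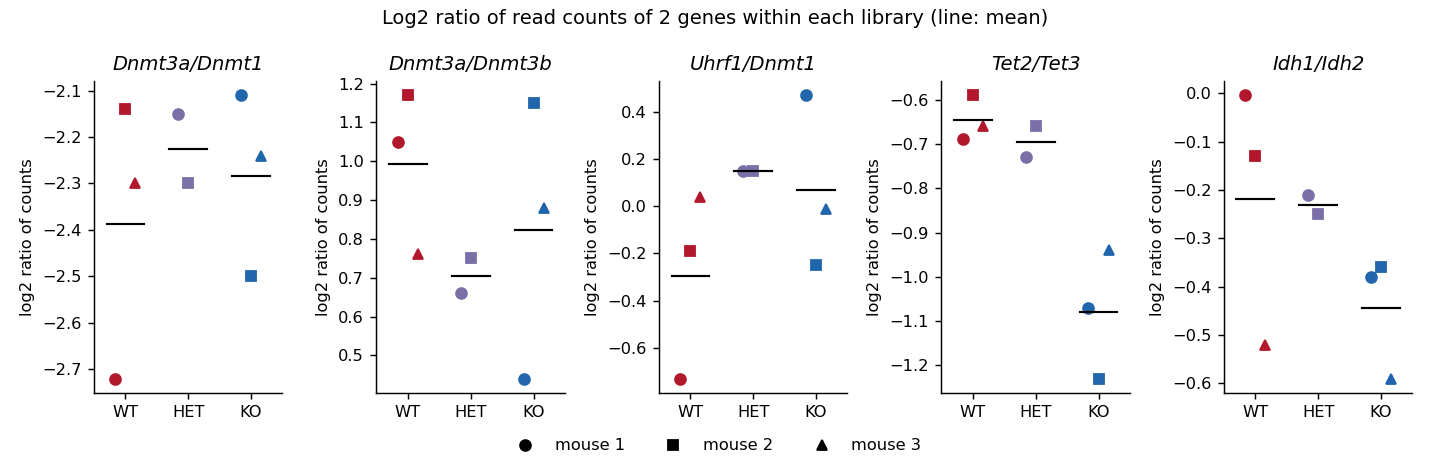
Log2 ratio of the read counts of 2 genes within each library (y axis, a separate scale per panel) for 5 pairs, by genotype (x axis), with 1 symbol per mouse (circle, mouse 1; square, mouse 2; triangle, mouse 3) and a line at the group mean. For Tet2/Tet3 the AML KO mice lie at −1.23 to −0.94 and all other mice at −0.73 to −0.59; in the other 4 panels AML KO and AML WT overlap.

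Tet3 (chr6:83362373-83459084, minus strand), the most abundant of the 3 Tet genes, was at 167, 135 and 118 CPM in AML WT, 138 and 132 in AML HET and 104, 133 and 138 in AML KO mice. AML WT 1 and AML KO 1 were the extremes, and the groups overlapped. AML KO differed from AML WT by −0.16 on the log2 scale (95% interval −0.52 to 0.20, edgeR adjusted p = 0.586), which was 0.038 from the median of its length class, and it was 0.10 without AML WT 1 and AML KO 1.

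Tet1 (chr10:62804570-62908996, minus strand), the least abundant, was at 12.1, 6.13 and 5.36 CPM in AML WT, 6.63 and 5.83 in AML HET and 7.69, 7.53 and 8.49 in AML KO mice. AML WT 1 was far above the other AML WT mice and decided the comparison. With it, the log2 difference of AML KO from AML WT was 0.0045 (95% interval −0.66 to 0.66). Without it, the value was 0.45, and the lowest AML KO mouse (7.53 CPM) was above the highest of the other mice (6.63 CPM). The share of all genes with this pattern was not counted. The adjusted p without AML WT 1 was 0.479 (edgeR's quasi-likelihood test), so this difference was not called either. Without both AML WT 1 and AML KO 1 it was 0.48 (edgeR adjusted p = 0.564, standard error 0.23).

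Between AML KO and AML HET, the groups did not overlap for 4 of the 9 genes. Dnmt3b and Tet2 were lower in AML KO, as were 11% of all genes without overlap, and Tet1 and Idh2 were higher, as were 13.2% of all genes. None of the 4 had an adjusted p below 0.771.

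**Figure D4:**
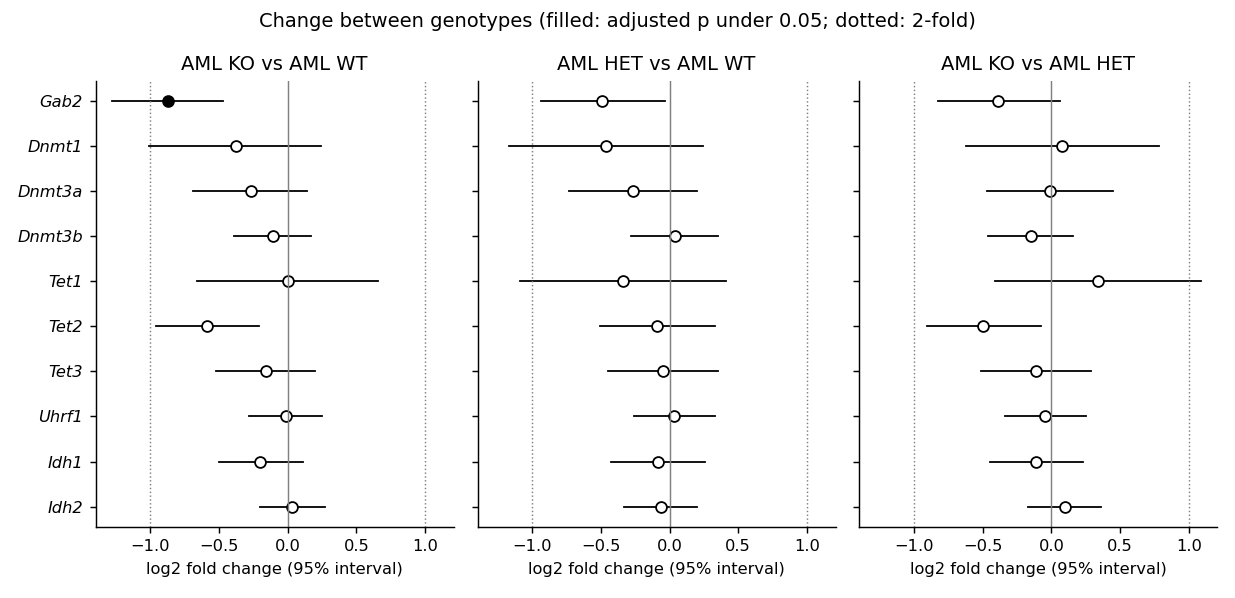
Log2 fold change (points) with 95% confidence interval (lines) of Gab2 and the 9 genes in 3 comparisons (panels), from edgeR's quasi-likelihood fit of all 8 mice. Filled points have an adjusted p under 0.05, which holds for Gab2 in AML KO against AML WT alone; dotted lines mark a 2-fold difference, and the Tet2 interval ends below 0 in both comparisons with AML KO.

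Idh1 (chr1:65158616-65186500, minus strand), the cytosolic source of 2-oxoglutarate, was at 222, 230 and 172 CPM in AML WT, 196 and 195 in AML HET and 180, 198 and 165 in AML KO mice. The groups overlapped, and AML KO was −0.20 from AML WT on the log2 scale (95% interval −0.50 to 0.11, edgeR adjusted p = 0.435). Idh2 (chr7:80094846-80115392, minus strand), the mitochondrial enzyme, was at 222, 251 and 247 CPM in AML WT, 227 and 232 in AML HET and 234, 254 and 249 in AML KO mice. It had the smallest relative range of the 9 genes, with the highest level per kilobase 1.14 times the lowest. AML KO differed from AML WT by 0.033 on the log2 scale (95% interval −0.20 to 0.27, edgeR adjusted p = 0.88), and by −0.14 with the offset for length and GC content. Idh2 lies on the same chromosome as Gab2, 17 Mb away.

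**Figure D5:**
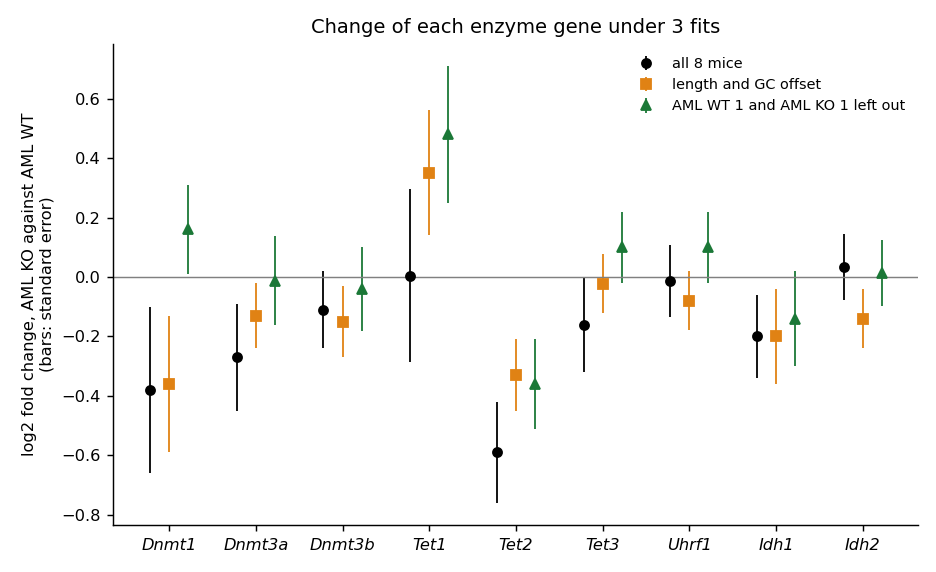
Log2 fold change of AML KO against AML WT (y axis, bars are standard errors) of the 9 genes in the fit of all 8 mice (circles), with an offset for gene length and GC content (squares) and without AML WT 1 and AML KO 1 (triangles). Tet2 is below 0 in all 3 fits (−0.59, −0.33 and −0.36). In the same order, Dnmt1 is at −0.38, −0.36 and 0.16, and Tet1 at 0.0045, 0.35 and 0.48.

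The wider pathway was described with 7 lists of 78 genes, of which 75 are in the table: partners of maintenance methylation, readers of methyl-CpG, demethylation and repair, partners of the TET and of the DNMT3 enzymes, the S-adenosylmethionine (SAM) cycle and 2-oxoglutarate metabolism. edgeR called none of the 75 between AML KO and AML WT, AML HET and AML WT, or AML KO and AML HET, where 8, 1 and 2 had an unadjusted p under 0.05, beside 17.7%, 2.47% and 5.86% of all genes. DESeq2 called 2 in AML KO against AML WT, Gadd45a and Cxxc5, and none in the others. The median log2 difference of AML KO from AML WT was −0.12. The slope on lost Gab2 alleles called 2 of the 75, and 2.64% of all genes. Gadd45a, a stress-response gene linked to active demethylation, was at 3.52, 6.89 and 6.61 CPM in AML WT, 7.19 and 9.18 in AML HET and 19.8, 9.83 and 13.3 in AML KO mice. The 3 groups did not overlap, and Gadd45a rose by 0.67 on the log2 scale per lost allele (edgeR adjusted p = 0.0449). Cxxc5, a CXXC-domain protein that can bind unmethylated CpG, was at 19.2, 18.6 and 20.1 CPM in AML WT, 21.2 and 22.0 in AML HET and 37.9, 26.6 and 29.4 in AML KO mice. It was also without overlap between the 3 groups and rose by 0.35 per lost allele (edgeR adjusted p = 0.0404). The share of all genes without overlap between the 3 groups was not counted. Between AML KO and AML HET alone, 13.2% of all genes were higher in AML KO without overlap. For both genes AML KO 1 was the highest mouse. Without AML KO 1 the slopes were 0.52 and 0.26 (adjusted p = 0.184 and 0.127 from edgeR), and each call held in only 1 of 8 fits that left out a mouse. Without both AML WT 1 and AML KO 1 they were 0.39 and 0.26 (adjusted p = 0.155 and 0.122 from edgeR). With the offset for length and GC content they were 0.57 and 0.28, and of these calls that of Cxxc5 was lost (adjusted p = 0.0355 and 0.0585 from edgeR).

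The other lists are given by their counts. In the SAM cycle, which supplies the methyl groups, 0 of 13 genes were called, and all 13 had a lower estimate in AML KO than in AML WT, with a median log2 fold change of −0.23, where the median of all genes was −0.017. The median deviation of these 13 genes from the mean of the 8 libraries was 0.31 in AML WT 1, −0.15 in AML KO 1 and −0.068 to 0.042 in the other 6. Without AML WT 1 and AML KO 1, 12 of the 13 estimates were lower, with a median of −0.11. For 2-oxoglutarate metabolism, 14 of 20 estimates were lower, with a median of −0.14. Its subunits of mitochondrial NAD-dependent isocitrate dehydrogenase, Idh3a and Idh3b, had log2 fold changes of −0.34 and −0.21 (adjusted p = 0.294 and 0.30 from edgeR). Among methyl-CpG readers, 6 of 8 estimates were lower (median −0.21). Their median deviation was 0.26 in AML WT 1, −0.29 in AML KO 1 and −0.039 to 0.037 in the other 6, and without these 2 libraries 3 of 8 estimates were lower (median 0.018). In the fit of all mice, Zbtb33, the repressor Kaiso, differed by −0.89 on the log2 scale (edgeR adjusted p = 0.218). The partners of maintenance methylation had a median of 0.037, with 4 of 7 higher, among them the replicative ligase Lig1 at 0.29 (adjusted p = 0.262 from edgeR). The partners of DNMT3 enzymes had a median of 0.086, with 6 of 10 higher, those of the TET enzymes a median of −0.018, with 3 of 6 higher, and demethylation and repair a median of 0.076, with 6 of 11 higher. Cxxc4, Wt1 and Dnmt3l were not among the genes of the table.

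Across the 8 mice, levels of the 9 genes moved together to different degrees. All correlations are Pearson's r of log2 CPM over 8 libraries, which share the length trend of 2 of them, and are given as a description. The highest was between Dnmt1 and Dnmt3a (0.92), followed by Dnmt3a and Tet3 (0.88), and the lowest between Dnmt3b and Idh2 (−0.84). Tet1 and Tet2 had an r of 0.14. Over all genes, the pattern most like that of Dnmt1 belonged to Spen (0.996), and 813 genes had an r over 0.9 with Dnmt1. For Dnmt3a it was Erlin2 (0.986), for Tet2 Gm26792 (0.977) and for Tet3 Cyb5d1 (0.983), with 498, 135 and 462 genes over 0.9. The shorter genes and Tet1 had fewer such genes: 37 for Dnmt3b (Mllt10, 0.951), 33 for Tet1 (Egln3, 0.969), 28 for Uhrf1 (Mast2, 0.967), 7 for Idh1 (Grb14, 0.958) and 15 for Idh2 (Cebpzos, 0.952).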

How the data were processed

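Whole BM RNA of 8 mice was sequenced on a HiSeq4000, and the authors deposited raw counts per gene without normalization. The submitters' processing notes name Trimmomatic 0.36, STAR 2.5.2b and the build mm10. The counting tool, annotation and strand setting are not given in the sources used here. Reads of antisense partners (Dnmt3aos, Dnmt3bos and the Tet2 antisense gene Gm42567, none in the table) thus cannot be told apart from those of Dnmt3a, Dnmt3b and Tet2. The same holds for Tet3, part of the Tet2 to Tet3 ratio, and B230319C09Rik on its opposite strand, also absent from the table. Other annotated genes absent from the table overlap Dnmt1, Tet1, Tet3 and Idh2 on the same strand. No gene has fewer than 106 counts in all, so genes with few counts are absent. Genes were matched to GENCODE M21 (GRCm38; 13266 of 13305).

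The analysis used edgeR 4.0.16 in R 4.3.3: TMM, no further filter, robust quasi-likelihood fit of all 8 mice with genotype (or lost alleles, as a number) as the only term, Benjamini-Hochberg adjustment over 13305 genes and a threshold of 0.05. Standard errors derive from the F statistic. Merged exons gave lengths. DESeq2 1.42.0, limma 3.58.1 (voom), RLE and upper-quartile factors, TMM without lineage marker genes, a minimum of 10 counts in every mouse, a block, AML WT and AML KO alone and each mouse left out were alternatives; the length and GC offset (splines with 5 degrees of freedom) and leaving out AML WT 1 and AML KO 1 were added after seeing the data. The fit was tested on simulated data. Groups come from the labels, which do not say whether mice with the same number share a litter or a day; the correlation of deviations of such mice was −0.51 to 0.29. The least number of genes with different counts in any pair of libraries was 13202. Named genes were the 9 genes, Gab2, the list genes past the threshold (up to 4 of the smallest p) or else up to 2 of the smallest p, and for each of the 9 the gene with the highest r; not every gene meeting this rule is reported. The members and lists were chosen with earlier results of these data known. Depth was 28009258 to 39266815 counts (median 32049876.5), so that 1 count was at most 0.0357 CPM, and spread between mice limits the precision. Promoter windows came from RefSeq (GRCm38.p6). Python 3.11.15, pandas 2.3.3 and matplotlib 3.10.9 were used for sequences and figures.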

Additional observations from a re-analysis of the deposited data

How the results depend on the processing

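None of the 9 genes was called by any alternative in any comparison, with the exception of Tet2 by DESeq2 (1 gene, in AML KO against AML WT and in the slope on lost alleles). The cause was not tested. Genes called in AML KO against AML WT numbered 730 with DESeq2, 19 with the replicate block and 134 without AML WT 1 and AML KO 1; in AML HET against AML WT 59 with DESeq2, 1 with limma-voom and 0 with the block; in AML KO against AML HET 77 with DESeq2; and for the slope 865, 125 with the block and 155 without both libraries. With 1 mouse left out in turn, these counts ranged from 40 (without AML WT 2) to 370 (without AML KO 2), 1 (without AML HET 2) to 5 (without AML KO 2), 0 to 4 (without AML KO 2), and 137 (without AML KO 1) to 525 (without AML KO 2). The Tet2 to Tet3 difference ranged from −0.51 to −0.36. An arm left with 1 mouse is assumed to vary like the others. The labels do not say what a shared replicate number means, and deviations did not correlate over 0.1 in every pair; the block turned Dnmt3a in AML KO against AML HET to 0.036 and ended the call of Gab2 (adjusted p = 0.165 from edgeR) and those of Gadd45a and Cxxc5 (0.147 and 0.111). The sex term was not run, since all 8 mice carry counts of Y-linked genes (Ddx3y at 960 or more).

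Gab2, Gadd45a and Cxxc5 kept their direction in every alternative for the comparisons in which they were called. The direction of the other called genes is not reported here. With upper-quartile factors Uhrf1 became 0.012 (AML KO against AML WT) and 0.0061 (slope). With the length and GC offset, Idh2 became −0.14 (AML KO against AML WT), −0.00094 (AML KO against AML HET) and −0.069 (slope), Tet2 and Tet3 0.039 and 0.076 in AML HET against AML WT, and Dnmt3a 0.013 in AML KO against AML HET. Without AML WT 1 and AML KO 1, Dnmt1, Tet3 and Uhrf1 became 0.16, 0.10 and 0.10 (AML KO against AML WT) and 0.079, 0.051 and 0.051 (slope), Tet1, Tet2 and Tet3 0.12, 0.025 and 0.10 (AML HET against AML WT), and Dnmt3a, Tet3 and Uhrf1 0.15, 0.0035 and 0.016 (AML KO against AML HET). With single mice left out, the ranges that crossed 0 were, in AML KO against AML WT, −0.20 to 0.45 for Tet1, −0.073 to 0.048 for Uhrf1 and −0.029 to 0.067 for Idh2; for the slope −0.08 to 0.23, −0.032 to 0.024 and −0.0087 to 0.037; in AML HET against AML WT −0.0046 to 0.12 for Dnmt3b, −0.54 to 0.12 for Tet1, −0.19 to 0.027 for Tet2, −0.15 to 0.10 for Tet3 and −0.049 to 0.11 for Uhrf1; and in AML KO against AML HET −0.16 to 0.30 for Dnmt1, −0.12 to 0.15 for Dnmt3a, −0.19 to 0.0089 for Tet3 and −0.12 to 0.036 for Uhrf1.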
